A study of Mus musculus with 13 samples.

Results

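Broad acetylated domains are long stretches of chromatin carrying acetylated lysine 27 of histone H3 (H3K27ac). Here they were selected on measured values: the peaks of the 4 H3K27ac lists were merged wherever they shared at least 1 bp, and a merged region was kept when it held a peak in all 4 lists and was at least 5000 bp wide. Of 53008 merged regions, 24356 had a peak in every list and 1797 of these met the width. The 1797 domains were 7.38% of the regions present in all 4 lists and 25.4% of their base pairs, 13.7 of 54 Mb. Only 5 merged regions of this width lacked a peak in some list.

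The libraries came from LβT2 cells, a mouse line with gonadotrope features, the pituitary cell type that secretes follicle-stimulating and luteinizing hormone. Every culture bore a lentivirus with FLAG-tagged mouse FoxL2 under doxycycline control, and all were given doxycycline for 48 h, then 2 h in medium with 2% serum, before 1 h of either vehicle or 1 nM activin A. A recovery of 24 h was also listed for every library. Chromatin was precipitated for H3K27ac, for SMAD2/3 and for the FLAG tag of the induced FOXL2, with 2 vehicle and 2 activin libraries per antibody, each made from 3 pooled culture plates. The vehicle cells therefore held induced FOXL2 too, no library lacks it, and the FLAG antibody does not see the cells' own FOXL2. Nothing in the labels says that the 2 libraries of a group came from separately grown cultures, so each test below measures the spread between these libraries, which may be technical. One Protein-A control library was described and was not analysed here. The series concerns enhancers of Fshb, the gene of the follicle-stimulating hormone β subunit.

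H3K27ac marks active promoters and enhancers. Long acetylated domains, often called super-enhancers or broad enhancer clusters, commonly lie at genes that define a cell's identity and bind many transcription factors. Activin A binds its receptors, which phosphorylate SMAD2 and SMAD3, and these move to the nucleus and bind DNA together with SMAD4 and cell-type factors. FOXL2 is a forkhead factor of gonadotropes and ovarian granulosa cells that acts with SMADs at activin-responsive genes.

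Domain width ran from 5002 to 51230 bp, with a median of 6534 bp and quartiles of 5583 and 8404 bp, against a median of 1547 bp for the 22559 narrower regions present in all 4 lists. Many were near the limit: 677 were under 6000 bp, 257 were at least 10 kb and 25 were at least 20 kb. The 3 narrowest members measured 5002, 5002 and 5003 bp, and the 3 widest regions just outside measured 4998, 4995 and 4995 bp. Domains lay on 20 chromosomes, from 40 on chromosome 10 to 160 on chromosome 2. Domains were often neighbours: 571 (31.8%) lay within 20 kb of another. One library stood apart: the second activin H3K27ac library showed 42.3% of domains as 1 unbroken peak, against 58.7% to 64.4% in the other 3, so the main counts that rest on it are also given without it.

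The promoters of 7 annotated starts (RefSeq, GRCm38.p6) inside domains had a SMAD2/3 summit from both activin libraries in the 250 bases before the start, of 496 RefSeq starts in domains. The 7 include a pair of Gm32297 starts, with windows from chr4:108391002 and from chr4:108391003, that hold the same summits. Printed are 4 of the 7, as examples of where the factors sat, and the promoter of Gnrhr, the receptor for gonadotropin-releasing hormone. All were chosen after their values were seen. Each is the 250 bases before the start, read 5′ to 3′ on the gene's strand, without any transcribed base. Capitals mark the letters CAGAC (a short SMAD binding element), GTCTAGAC (a palindrome of the SMAD core, which shares AGAC with CAGAC) and GTAAACA (a forkhead core), searched on both strands, so that GTCTG and TGTTTAC are the reverse forms.
Gm41452: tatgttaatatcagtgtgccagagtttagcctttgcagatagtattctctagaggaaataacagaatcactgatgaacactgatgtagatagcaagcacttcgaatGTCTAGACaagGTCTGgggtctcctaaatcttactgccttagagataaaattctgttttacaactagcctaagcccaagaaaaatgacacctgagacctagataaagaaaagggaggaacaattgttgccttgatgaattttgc
Gm35815: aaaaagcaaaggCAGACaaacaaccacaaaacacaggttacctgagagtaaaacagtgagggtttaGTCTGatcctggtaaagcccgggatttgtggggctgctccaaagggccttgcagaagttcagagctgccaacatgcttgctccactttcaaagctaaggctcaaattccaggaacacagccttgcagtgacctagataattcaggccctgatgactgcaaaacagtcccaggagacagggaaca
Gm32297: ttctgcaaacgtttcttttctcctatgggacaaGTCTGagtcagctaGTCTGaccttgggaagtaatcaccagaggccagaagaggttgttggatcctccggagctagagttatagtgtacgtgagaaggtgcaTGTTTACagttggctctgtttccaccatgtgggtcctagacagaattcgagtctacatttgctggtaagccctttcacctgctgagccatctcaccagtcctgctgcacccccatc
Luc7l2: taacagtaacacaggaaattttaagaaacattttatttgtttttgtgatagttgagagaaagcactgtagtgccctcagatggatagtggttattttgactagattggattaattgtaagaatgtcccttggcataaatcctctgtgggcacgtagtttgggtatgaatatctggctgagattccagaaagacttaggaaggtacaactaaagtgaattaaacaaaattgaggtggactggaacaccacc
Gnrhr: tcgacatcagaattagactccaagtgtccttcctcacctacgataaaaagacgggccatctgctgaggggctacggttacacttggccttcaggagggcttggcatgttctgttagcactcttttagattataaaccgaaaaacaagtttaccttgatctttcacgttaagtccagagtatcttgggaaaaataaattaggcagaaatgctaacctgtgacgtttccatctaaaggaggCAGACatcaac

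The windows are chr16:37845845-37846094 (minus strand) for Gm41452, chr2:178680388-178680637 (plus) for Gm35815, chr4:108391002-108391251 (plus) for Gm32297, chr6:38555473-38555722 (plus) for Luc7l2 and chr5:86197902-86198151 (minus) for Gnrhr. In the Gm41452 promoter the palindrome occupies bases 144 to 137 before the start. The SMAD2/3 summits lay 110 and 139 bases before the start in activin libraries 1 and 2, at ranks of 97.5 and 98.8 in their lists, so the second summit fell on the palindrome. No FOXL2 summit and no vehicle SMAD2/3 summit fell in this window. In the Gm35815 promoter, SMAD2/3 summits lay at 143 and 186 bases in the activin libraries and at 179 in vehicle library 1, and FOXL2 summits from all 4 libraries lay between 129 and 160 bases. The Gm32297 promoter held the forkhead core at bases 116 to 110, and FOXL2 summits at 131 and 116 bases with vehicle and at 104 and 117 with activin, so that of vehicle library 2 fell on the core. Its SMAD2/3 peaks were weak, at ranks of 36.8 and 2.5.

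Luc7l2, which encodes a splicing factor, had the strongest FOXL2 peaks of these 5 promoters, at ranks by −log10 q of 98.9 and 98.8 in the vehicle lists and of 99.3 and 99.5 in the activin lists. None of the 3 letter strings occurs in that window. The Gnrhr promoter had a FOXL2 summit in all 4 libraries, at ranks of 80.6 and 86.6 with vehicle, against 69.7 and 70.8 with activin, and no SMAD2/3 summit. The short element is common and the other strings are not. CAGAC in either direction stood in 46.8% of the 496 promoter windows in domains and in 42.2% of all 32851 RefSeq windows of the same length, GTAAACA in 3.43% and 3.17%, and GTCTAGAC in 0.403% and 0.167%, which are 2 and 55 windows.

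Most domains were not at promoters. The deposited annotation placed the widest H3K27ac peak of 946 domains (52.6%) in an intron and of 619 (34.4%) between genes, and the median distance to the nearest annotated start was 17.6 kb. A peak in the promoter class was present in 280 domains (15.6%, 95% Wilson interval 14 to 17.3%) and in 34.4% of the narrower regions. Gene starts were sparse in domains, with 3.62 RefSeq starts per 100 kb against 16.2 in the narrower regions. A start derived from the deposited distances lay inside 364 domains, and a protein-coding one in 246.

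The labelled cell type was checked by acetylation near gene starts. Of 10 gonadotrope genes, 9 had an H3K27ac region present in all 4 lists within 1 kb of the start, the exception being Fshb itself, and 5 (Cga, Gnrhr, Pitx1, Isl1 and Gata2) had a broad domain there. Of the 6 marker genes of other pituitary cells that had a derived start (Pomc, Tbx19, Pou1f1, Prl, Tshb and Sox2), none had an H3K27ac peak in any list within 1 kb. These markers are a part of the lists of 23 and 13 genes used below, and Ghrhr of the latter list was not among them. Of all 32851 RefSeq starts, 496 (1.51%) lay inside a domain. The share of all starts with an H3K27ac region within 1 kb was not computed, so the counts describe these genes only.

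SMAD2/3 peaks in domains separated the treatments. The domains held 195 and 64 SMAD2/3 peaks in the vehicle libraries, against 1595 and 1285 in the activin libraries. Per 100 kb of domain this was 1.42 and 0.467 with vehicle, against 11.6 and 9.38 with activin. Both activin values were above both vehicle values, a log2 difference of 3.68 (pooled SD 0.82, n = 2 against 2, exact two-sided permutation p = 0.333, the smallest this design allows). The lists themselves differed in length: the whole vehicle lists held 605 and 144 peaks and the activin lists 7784 and 5970. With all 4 lists cut to the length of the shortest by −log10 q, the log2 difference in domains was -0.001, so the part of each list's strongest peaks that lay in domains was on average the same under both treatments. How many reads stand behind each list is unknown.

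The domains took a large part of the SMAD2/3 lists for their size. They held 32.2% and 44.4% of the vehicle peaks and 20.5% and 21.5% of the activin peaks. Relative to the narrower regions, which had 0.739, 0.124, 7.7 and 5.97 peaks per 100 kb in the same order of libraries, SMAD2/3 density in domains was higher in 4 of 4 libraries, with a mean log2 ratio of 1.03 ± 0.61 (SD, n = 4, exact sign-flip permutation p = 0.13, the smallest possible). The ratio was 1.93 and 3.77 in the vehicle libraries, against 1.51 and 1.57 in the activin libraries. Against narrower regions of at least 2000 bp alone the mean log2 ratio was 0.67.

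A SMAD2/3 peak in both activin libraries was found in 862 domains (48%, 45.7 to 50.3%), where 11.7% of all regions present in the 4 H3K27ac lists had one. A wider region has more room for a peak, so this share depends on width, and the density above is the comparison per base. In both vehicle libraries a SMAD2/3 peak was found in 59 domains (3.28%), against 0.423% of all these regions. All 59 also had SMAD2/3 in both activin libraries.

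FOXL2 occupied the domains densely under both treatments. Per 100 kb there were 28.9 and 30.6 FOXL2 peaks with vehicle, against 29.1 and 30 with activin. The 2 groups overlapped, with a log2 difference of -0.01 (pooled SD 0.048, n = 2 against 2, exact permutation p = 1). The whole FOXL2 lists held 86401 and 83834 peaks with vehicle, against 97701 and 94006 with activin. With all 4 cut to the length of the shortest by −log10 q, the domains held 27.92 and 30.65 peaks per 100 kb with vehicle, against 25.65 and 27.3 with activin, and the groups no longer overlapped (log2 difference -0.145, exact permutation p = 0.333, the smallest possible). In both activin libraries a FOXL2 peak was found in 1454 domains (80.9%), against 35.5% of all regions in the 4 lists. Per base the excess was small: FOXL2 density in domains was higher than in narrower regions in 4 of 4 libraries, but by a mean log2 ratio of only 0.10 ± 0.066 (SD, n = 4, exact permutation p = 0.13), and among regions without a promoter peak the sign turned, to -0.09. The plot of peaks per 100 kb shows both factors library by library.

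**Figure D1:**
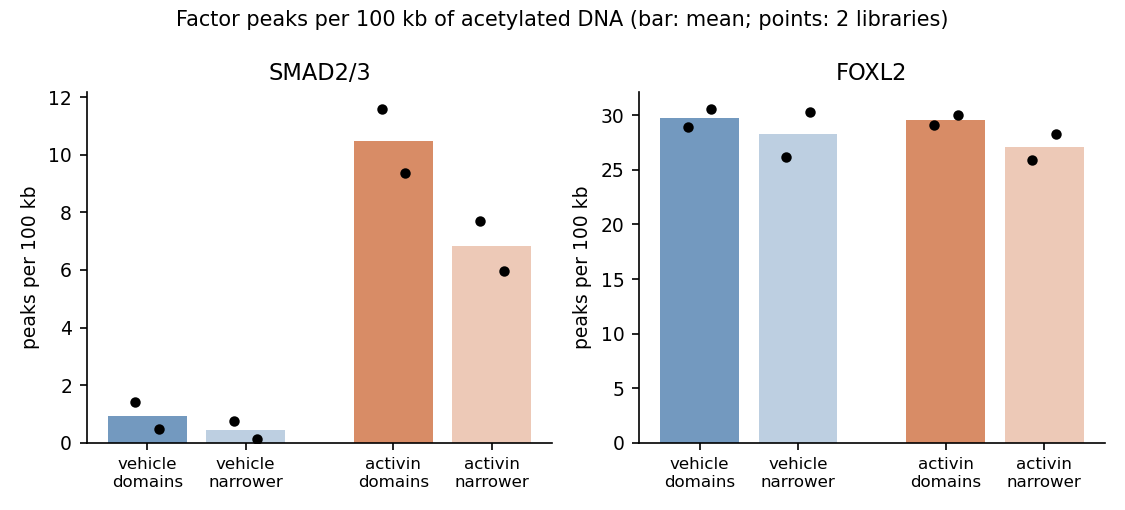
SMAD2/3 (left) and FOXL2 (right) peaks per 100 kb of H3K27ac region, for broad domains and for narrower regions present in all 4 lists; bars are means, points the 2 libraries of each treatment. SMAD2/3 density was 11.6 and 9.38 in domains with activin against 1.42 and 0.467 with vehicle, while FOXL2 stayed between 28.9 and 30.6 in domains.

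Both factors were present in 792 domains (44.1%), SMAD2/3 alone in 70, FOXL2 alone in 662 and neither in 273 (15.2%), counting peaks in both activin libraries. Among narrower regions, 66.6% had neither. Where SMAD2/3 bound in a domain it usually bound at a FOXL2 peak of the same treatment and replicate number: 186 of 195 and 64 of 64 SMAD2/3 peaks with vehicle, and 1215 of 1595 (76.2%, 74 to 78.2%) and 1028 of 1285 (80%, 77.7 to 82.1%) with activin. With activin the narrower regions gave nearly the same shares, 75.6% and 79.5%, and with vehicle 79.3% and 88%, where the domains had 95.4% and 100%. Within domains SMAD2/3 summits lay toward the middle, with 69.1% to 79.7% of them nearer to the centre than to the closer end, by library, where 58% to 59.6% of FOXL2 summits lay.

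Wider domains more often held each factor. With SMAD2/3 in both activin libraries were 41.5% of the domains under 6000 bp, 63.5% of the 200 between 10 and 15 kb and 78.9% of the 57 of 15 kb or more. With FOXL2 the shares were 74%, 91% and 100%. The density of SMAD2/3 peaks did not follow: it was 11.3 per 100 kb in the narrowest class and 8.71 in the widest, and FOXL2 density was 28.6 and 36.4. Per base, then, the widest domains held no more SMAD2/3 peaks than the narrowest.

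**Figure D2:**
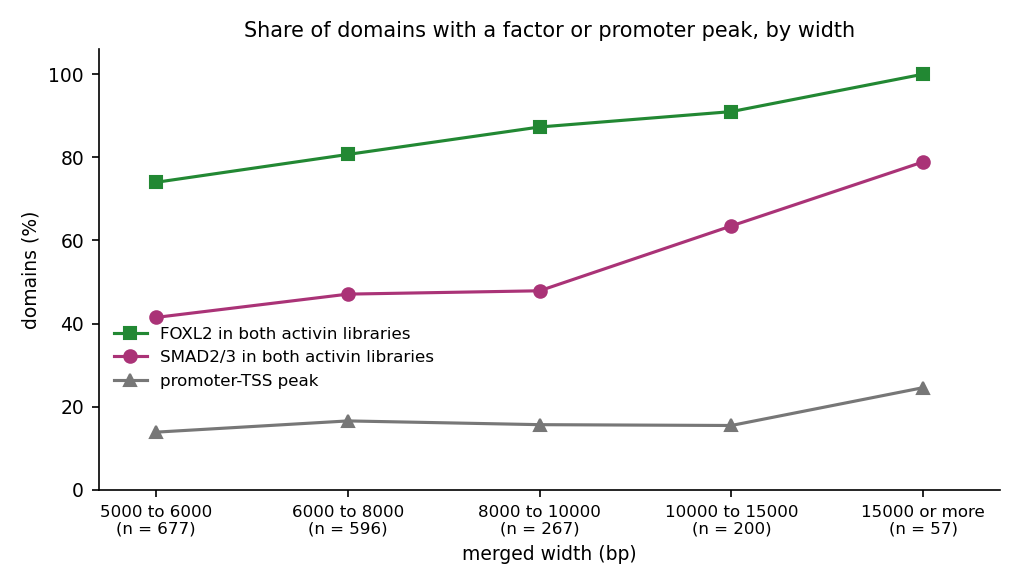
Share of domains (percent) with a FOXL2 peak in both activin libraries, a SMAD2/3 peak in both activin libraries and an H3K27ac peak of the promoter class, by merged width in bp, with the number of domains under each class. The SMAD2/3 share goes from 41.5% to 78.9% and the FOXL2 share from 74% to 100%.

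Acetylation strength was compared as a percentile rank: the rank by −log10 q of a domain's strongest peak within its own list, 100 being the strongest. Ranks are relative to the list and do not show an absolute gain or loss. The median domain ranked 93.5 and 93.3 with vehicle, against 93.8 and 92.8 with activin, a level tied to the choice of members and given as a description. A domain was called higher when both activin ranks exceeded both vehicle ranks, and lower in the opposite case. By this call 634 domains (35.3%) were higher, where 26.4% of all regions in the 4 lists were, and 715 (39.8%) were lower, where 31.2% were. Both shares were a little above those of all regions, and the median change over the domains was -0.19 points. By over 10 points, 182 domains were higher and 179 lower. Large changes were not particular to the domains. The quartiles of the change were -3.69 and 3.06 points in domains, against -8.84 and 6.79 in the narrower regions. Without activin library 2, 807 (44.9%) were higher and 791 (44%) lower, where 40.5% and 39.2% of all regions were.

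Which domains ranked higher went with SMAD2/3. Of the 862 domains with SMAD2/3 in both activin libraries, 468 (54.3%) were higher and 211 (24.5%) lower, with a median change of 1.31 points. Of the 935 others, 166 (17.8%) were higher and 504 (53.9%) lower, with a median change of -1.89. A domain with a SMAD2/3 peak in only 1 activin library counts among these 935, here and below. Activin libraries 1 and 2 had SMAD2/3 in 1049 and 903 domains. The difference in the share ranked higher was 36.5 percentage points (95% interval 32.4 to 40.7, counting error over domains only), and 35.2 points without activin library 2. The split was also present outside the domains: of the narrower regions, 68.5% with SMAD2/3 were higher and 12.9% lower, against 21.6% and 32.2% without, so it was not particular to the domains. Since the same direction across all acetylated regions was known when the domains were picked, the difference is given as a description of these libraries.

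The shares were graded by the number of SMAD2/3 peaks. Counting the smaller number of the 2 activin libraries, 17.8% of domains with 0 peaks were higher, 48.7% of those with 1, 67% of those with 2 and 69.8% of the 63 domains with 3 or more. The shares ranked lower ran the other way, 53.9%, 28.3%, 16.8% and 11.1%. The 59 domains already bound with vehicle were higher in 46 cases (78%), with a median change of 3.11 points. Without activin library 2 the shares ranked higher were 28%, 58.1%, 74.9% and 77.8% for 0, 1, 2 and 3 or more peaks. No such grading appeared for FOXL2, where the share ranked higher lay between 29.4% and 39.7% for domains with 0 to 5 or more peaks, and between 37.9% and 48% without activin library 2.

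**Figure D3:**
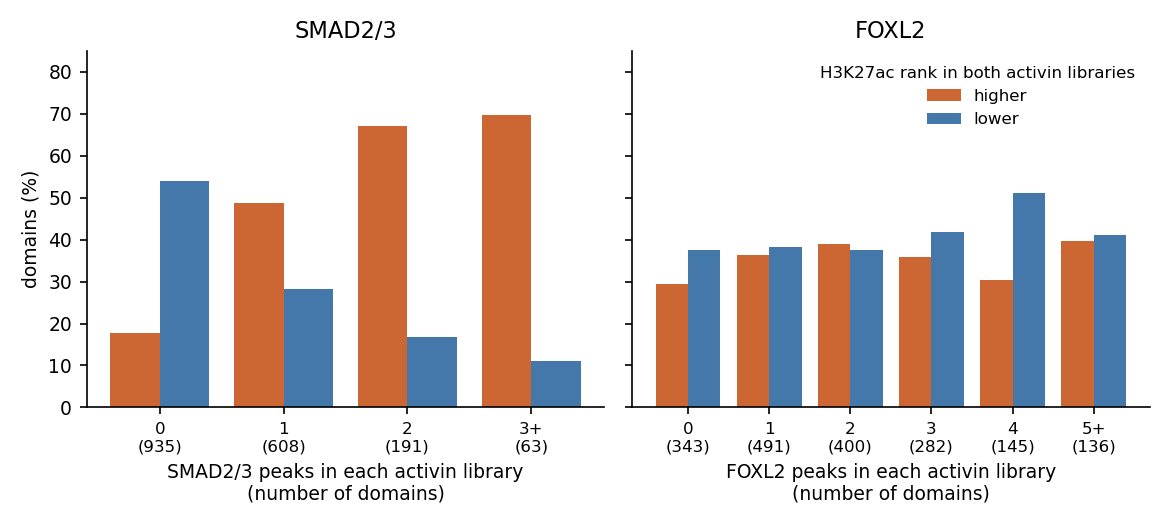
Share of domains (percent) ranked higher (orange) or lower (blue) by H3K27ac in both activin libraries, by the number of SMAD2/3 peaks (left) or FOXL2 peaks (right) found in each activin library, with the number of domains in parentheses. The higher share goes from 17.8% to 69.8% with SMAD2/3 peaks, while it stays between 29.4% and 39.7% with FOXL2 peaks.

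FOXL2 without SMAD2/3 did not go with a higher rank. Of the 662 domains with FOXL2 alone, 16.6% were higher and 58% lower, and of the 273 with neither factor, 20.5% and 44%. SMAD2/3 without FOXL2 gave 64.3% higher among 70 domains, and both factors together gave 53.4% among 792. Leaving out activin library 2, these 4 shares ranked higher were 25.1% with FOXL2 alone, 35.2% with neither, 74.3% with SMAD2/3 alone and 62.2% with both. The shares of promoter and distal domains with SMAD2/3 were close, at 54.2% of 96 and 54.3% of 766. Sorted by mean rank into 4 classes of equal size, the SMAD2/3 domains were higher in 64% of the lowest class and 52.2% of the highest, and the others in 19.3% and 12.8%, so the contrast was present in weak and strong domains. The median change in the SMAD2/3 domains was 11.13 points in the lowest class and 0.24 in the highest, where ranks are close to their upper limit of 100.

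FOXL2 peaks inside domains were also ranked, by their own −log10 q. Of 2857 merged FOXL2 regions in domains with a peak in all 4 FOXL2 lists, 22.9% ranked higher and 38.4% lower in both activin libraries, where 29.9% and 28.1% of all 58444 such FOXL2 regions in the genome did. FOXL2 regions in the narrower acetylated regions were close to those in domains, at 23% and 36.6%. Among those lying at an activin SMAD2/3 peak, 37.2% were higher and 30.4% lower. In domains without SMAD2/3, 12.7% were higher and 46.9% lower. FOXL2 sites that shared a domain with SMAD2/3 without touching it had 21.7% higher, which lay between, and 33.4% lower. In this order the classes held 815, 994 and 802 regions, so some of the 2857 were in none of them.

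The covered part of single domains also differed between treatments. Since the width comes from the union of 4 libraries, a domain may be continuous in one treatment and broken in the other. H3K27ac peaks covered 88.1% and 87.7% of all domain base pairs with vehicle, against 90.3% and 82.9% with activin, so the 2 treatments overlapped (log2 difference -0.023, pooled SD 0.063, exact permutation p = 1, n = 2 against 2). Without activin library 2, the library that stood apart, the log2 difference was 0.040. Domain by domain, 516 (28.7%) had a larger covered share in each activin library than in either vehicle library, where 21.2% of all regions in the 4 lists did. A smaller share was seen in 654 (36.4%), where 31.8% of all regions had one. Without activin library 2 the count with a larger share was 836, and without activin library 1 the count with a smaller share was 1011.

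The covered share was also split by SMAD2/3. Coverage and width come from the same H3K27ac peaks, so a domain that reached 5000 bp in 1 treatment alone had to be covered less in the other, and these counts are a description. Of the 862 domains with activin SMAD2/3, 389 (45.1%) had a larger covered share with activin and 189 (21.9%) a smaller one, and of the 935 without, 127 (13.6%) and 465 (49.7%). Leaving out activin library 2, these were 63.8% and 24% with SMAD2/3 and 30.6% and 52% without. A single peak of at least 5000 bp was present in all 4 libraries at 584 domains. It was present in both activin libraries and neither vehicle library at 124 domains, of which 101 had activin SMAD2/3, and in both vehicle libraries and neither activin library at 154, of which 27 had it. The 2 counts were 324 and 167 without activin library 2, of which 231 and 29 had SMAD2/3.

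Where 4 values follow each other below, they are those of vehicle libraries 1 and 2 and then of activin libraries 1 and 2. The 10 widest domains ranked between 94.14 and 99.99 in every list. The widest, at chr3:15193808-15245037 and 48 kb from the start of Gm33819, spanned 51230 bp between genes. It held 25 and 26 FOXL2 peaks with vehicle, against 25 and 24 with activin, the highest number of any domain, but no SMAD2/3 peak with vehicle and 1 in each activin library. Its ranks were 99.77 and 99.82 with vehicle, against 98.98 and 98.49 with activin, so it was lower in both. The domain at chr17:63323760-63366855, with the start of Gm17228 inside, was 43096 bp wide and combined 18, 18, 20 and 20 FOXL2 peaks with 0, 0, 5 and 5 SMAD2/3 peaks. Its ranks were 99.88 and 99.80 with vehicle, against 99.99 and 99.99 with activin.

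Others among the widest lay near Gm14665 (34501 bp), Gm20407 (30363 bp), Gm27851 (29763 bp), Tmem86a (26784 bp), Gucy2f (26112 bp), Gatb (25715 bp) and Isl1 (24595 bp). The Gm27851 domain was higher, at 97.04 and 96.42 and then 99.89 and 99.74, with 1 and 0 SMAD2/3 peaks before and 4 and 3 after activin. The domain near Gm14665 shared the highest mean number of SMAD2/3 peaks, 1 and 1 with vehicle, against 5 and 6 with activin, with a domain at chr6:58965177-58983083 around the start of BB365896, which had 2 and 0 and then 6 and 5. H3K27ac covered 67.5% and 63.5% of the BB365896 domain with vehicle, against 99.9% and 95.8% with activin. The domains near Gm17228, Gucy2f and Gm37941 completed the 5 with most SMAD2/3, the last tied with a domain near Gm28722 at 5 and 4 activin peaks, and the domain near Foxp2, a forkhead factor gene, was among the 5 with most FOXL2, at 17, 14, 17 and 19 peaks.

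Gonadotrope genes were represented by 11 domains. Of the 23 genes in the list, those with their start inside a domain included Cga, Gnrhr, Pitx1, Isl1 and Gata2, and 4 others were the nearest gene of one (Nr5a1, Foxl2, Six6 and Nr0b1). SMAD2/3 was present in both activin libraries at 8 of the 11 and FOXL2 at 10, where 48% and 80.9% of all domains had them. By rank 5 were higher and 4 lower, where 35.3% and 39.8% of all domains were, with a median change of 0.10 points against -0.19 over all domains, so the list had no common direction.

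Cga encodes the α subunit shared by the glycoprotein hormones of the pituitary. Its domain, chr4:34883072-34905423, was 22352 bp wide with the Cga start inside. SMAD2/3 peaks numbered 1 and 1 with vehicle, against 4 and 4 with activin, and FOXL2 peaks 10 and 11 and then 12 and 12. Its acetylation rank was 99.84 in both vehicle libraries and 99.31 and 99.47 with activin, so it ranked lower while it held more SMAD2/3 peaks. H3K27ac covered between 92.2% and 97.7% of it in every library.

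Gnrhr, 9085 bp at chr5:86191248-86200332, followed the same order, with ranks of 99.09 and 98.88 and then 98.67 and 97.61, SMAD2/3 peaks of 0, 0, 2 and 2 and FOXL2 peaks of 4, 4, 3 and 3. The Cga and Gnrhr domains were thus both lower, with small changes of -0.45 and -0.84 points. The Pitx1 domain with the start inside was higher by 0.05 points, which was 0 when ranked by fold enrichment. Gata2 was higher by 0.36 points, and the sign turned with fold enrichment (-0.72) and with a width-weighted mean (-0.34), so neither has a firm direction. The Gata2 domain had no SMAD2/3 peak in any library.

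The Isl1 domain, at the gene of a LIM homeobox factor, ranked 98.73 and 98.99 with vehicle, against 99.64 and 99.08 with activin and had 0, 0, 3 and 3 SMAD2/3 peaks. A second domain 127 kb from the Pitx1 start went from 97.70 and 97.60 to 99.28 and 98.65, with SMAD2/3 peaks of 0, 0, 3 and 1. The Six6 domain, 2.6 kb from the start, had ranks of 60.00 and 69.06 and then 79.22 and 70.16 and no SMAD2/3 peak in any library. The Nr0b1 domain was lower, at 93.53 and 93.56 and then 87.80 and 90.63. Nr5a1, the gene of steroidogenic factor 1, and Foxl2 itself had domains whose ranks overlapped between treatments, all of them at or above 98.08. Foxl2's domain lay 5.84 kb from its start, and the induced transgene is a separate copy.

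**Figure D4:**
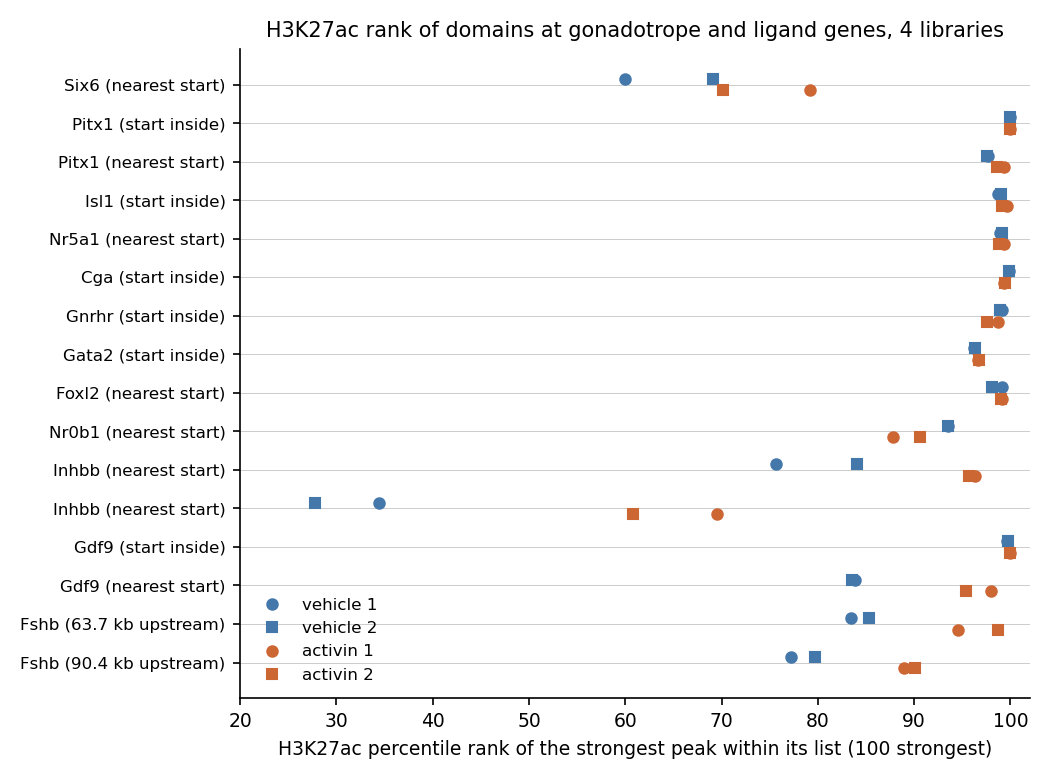
H3K27ac percentile rank within its list (horizontal axis, 100 strongest, axis starts at 20) of the domains of the gonadotrope genes named in the text, of the ligand genes Inhbb and Gdf9 and of the 2 domains upstream of Fshb; blue is vehicle, orange activin, circles and squares libraries 1 and 2. The Inhbb, distal Gdf9 and Fshb-upstream domains have both orange points to the right of both blue points, and most gonadotrope domains lie above 95 under both treatments.

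Among 19 genes of ligands and binding proteins of the TGF-β family, Inhbb and Gdf9 had domains. Inhbb encodes the βB subunit of activin B and inhibin B, and 2 domains lay 30.6 and 24.2 kb from its start. The first, chr1:119388074-119395239, ranked 75.66 and 84.01 with vehicle, against 96.34 and 95.71 with activin, and its covered share went from 64.8% and 62.3% to 100% and 92.3%. The second, chr1:119395571-119400573, ranked 34.47 and 27.75 and then 69.57 and 60.78, with a covered share of 45.5% and 30.5% and then 99.3% and 75.2%. SMAD2/3 peaks numbered 1 and 0 and then 2 and 2 in the first domain and 0, 0, 1 and 1 in the second. In neither domain did the treatments overlap in rank or in coverage. Gdf9, the gene of a ligand best known from oocytes, had its start in a domain at ranks of 99.66 and 99.72 and then 99.97 and 99.96, and a neighbouring domain went from 83.82 and 83.55 to 97.94 and 95.37. These 4 domains, 2 neighbouring ones at each gene, were all that the list had. All 4 were higher, where 35.3% of all domains were, and their median change was 14.58 points against -0.19.

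The 2 domains upstream of Fshb carry the label Gm13903 in the deposited annotation, and they were singled out after their values were seen. The larger, chr2:107117071-107129627, had its centre 63.7 kb upstream of the Fshb start. With vehicle it was a row of separate peaks covering 32.9% and 30.8% of the 12557 bp, the widest of them 1391 and 985 bp. With activin the covered share was 99.9% and 87.3% and the widest peak 12539 and 7400 bp. It thus reached 5000 bp in a single peak only in the activin libraries, and it held 2 SMAD2/3 peaks in each vehicle library, then 3 in each activin library. The smaller, chr2:107147324-107152835, lay 90.4 kb upstream, with ranks of 77.16 and 79.70 and then 88.95 and 90.12, 1 FOXL2 peak in every library and SMAD2/3 peaks of 0, 0, 1 and 1. Its covered share moved less, from 80.9% and 76% to 92.7% and 84.3%.

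**Figure D5:**
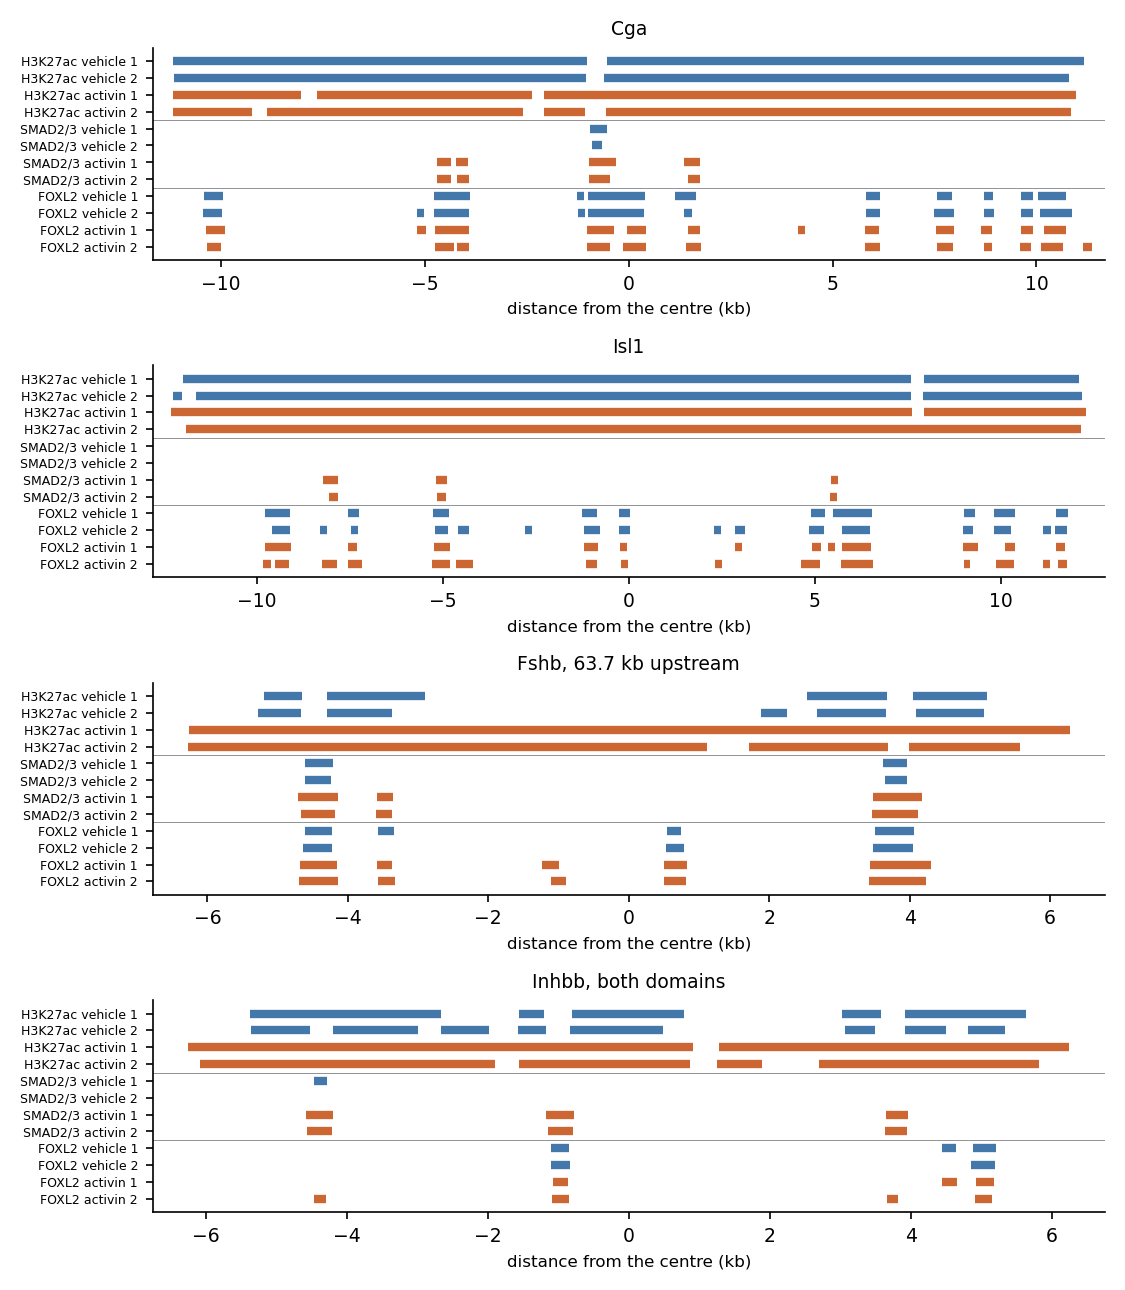
Peaks of each library (blue vehicle, orange activin) across the domains at Cga, Isl1, upstream of Fshb and near Inhbb, by distance from the centre in kb. The Cga and Isl1 domains are covered almost throughout in every library, while the larger Fshb-upstream domain and both Inhbb domains are broken into separate H3K27ac peaks with vehicle, are each 1 peak in activin library 1 and are broken again, into 2 or 3 wider peaks, in activin library 2.

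Other genes of the activin pathway were looked up by start and by nearest gene. Of 27025 gene symbols with a RefSeq start, 422 (1.56%) had one in a domain. Tgfbr3l, which encodes a co-receptor of inhibin B in gonadotropes and was also singled out after its values were seen, had its start in a domain at chr8:4246319-4251416 with 1 FOXL2 peak and no SMAD2/3 peak in every library, and ranks of 98.22 and 98.92 and then 98.31 and 97.71. Of 13 genes of SMAD feedback only Smad6, an inhibitory SMAD, had one, at ranks of 75.98 and 78.24 and then 78.94 and 81.51, with SMAD2/3 peaks of 1, 0, 1 and 1. Of 19 SMAD and receptor genes none had its start in a domain, and Smad2, Smad3, Bmpr1a and Bmpr1b were the nearest gene of 1 each. The Smad2 domain was higher, at 94.19 and 94.07 and then 96.49 and 95.94. The Smad3 domain was lower, at 99.83 and 99.86 and then 99.44 and 98.85, and so was that near Bmpr1b, a receptor of bone morphogenetic proteins, at 94.43 and 92.44 and then 81.51 and 75.06.

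Among 32 immediate early genes, 3 had their start in a domain. Btg2, a growth-restraining gene, was higher at 95.25 and 92.38 and then 97.80 and 97.88, with 1 SMAD2/3 peak in each activin library. The covered share of its domain went the other way, from 85.3% and 88.3% to 84.8% and 74.7%. Id2 and Id3, inhibitors of helix-loop-helix factors, had no SMAD2/3 peak and ranks that overlapped between treatments. Cdkn2b, which encodes a cyclin-dependent kinase inhibitor induced by TGF-β in many cells, was higher at 95.24 and 94.82 and then 97.41 and 96.52, also without a SMAD2/3 peak. Its domain lost FOXL2 peaks, with 3 and 2 before and 0 and 0 after activin.

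Secretory granule genes Chga and Chgb, which encode granins, had 3 domains with none higher and 1 lower, where 35.3% and 39.8% of all domains were. The Chga domain of 21024 bp ranked 93.56 and 97.51 and then 94.81 and 95.67. Of the housekeeping list, the domain holding Malat1 was higher (95.49 and 96.35, then 96.89 and 98.88). Its covered share was smaller with activin (95.1% and 94.5%, then 91.2% and 75.7%). In the list of other pituitary lineages only Ghrhr was the nearest gene of any domain. Its 2 domains, 12.6 and 22 kb from the start, were both higher, where 35.3% of all domains were. They are direct neighbours, at chr6:55386414-55391637 and chr6:55391997-55404665. The nearer ranked 71.79 and 64.47 and then 91.96 and 91.10, and the other 97.49 and 97.45 and then 98.92 and 99.13.

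The largest differences in rank were at domains that were neither the widest nor the strongest. The 10 largest rises ran from 35.14 to 62.04 points (34.97 to 63.46 without activin library 2). All 10 domains had a SMAD2/3 peak in both activin libraries, where 48% of all domains did. They were picked on rank, whose link to SMAD2/3 was already known, so this count is a description. The domain at chr11:94312571-94319315, 16.9 kb from the start of Ankrd40, was first: its ranks were 26.88 and 10.93 with vehicle, against 82.16 and 79.73 with activin, its SMAD2/3 peaks 0, 0, 2 and 1, and its covered share 16.4%, 11.7%, 95.5% and 80.8%. Domains near Mir5101, Gm12923, Hnrnpc, Tnfrsf1b, Gm7358, Gm27580, Mir5624, Eml6 and Cobl followed. Hnrnpc encodes an RNA-binding protein, and the domain 15.4 kb from its start went from 10.57 and 13.37 to 59.94 and 60.25. The domain 26.1 kb from Tnfrsf1b, a receptor of tumour necrosis factor, had SMAD2/3 peaks of 0, 0, 3 and 2 and no FOXL2 peak in any library, and went from 41.55 and 40.97 to 90.21 and 85.16. Vehicle ranks were low in all 10, as such rises require, at 62.99 or less in every vehicle library.

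The 10 largest falls ran from -37.20 to -54.64 points (-29.23 to -49.54 without activin library 2). Of these 10 domains, 9 did not have SMAD2/3 in both activin libraries, where 935 of all 1797 domains did not. This count too is a description. The domain near Gm22212, among the 9, had 3 peaks in activin library 1 alone. The largest fall, at chr18:27010489-27020272 near Gm26106, went from 87.93 and 82.09 to 50.58 and 10.16. Its size leaned on activin library 2, the library that stood apart, and without that library it was not the largest. This domain had SMAD2/3 peaks of 0, 1, 1 and 1. The domain at chr16:9200934-9205986, 281 kb from Gm10247, went from 97.86 and 97.53 to 50.57 and 42.46, lost its single FOXL2 peak (1, 1, 0 and 0) and had no SMAD2/3 peak. The domain at chr15:71693803-71699084, in an intron 31.4 kb from the start of Fam135b, went from 84.94 and 80.28 to 33.07 and 34.99, its covered share from 99.7% and 96.6% to 43.2% and 20.6%, and kept 1 FOXL2 peak in every library. The domain near Gm10012 went from 94.72 and 94.36 to 46.20 and 45.36 with 3, 4, 3 and 3 FOXL2 peaks. The other 5 lay near Gm9931, RP23-245O13.2, 4930552N02Rik and Speer4a and at another domain near Gm26106. Falls of this size were thus seen with FOXL2 peaks kept as well as lost.

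The domains of the printed promoters can be read beside their sequences. The Gm41452 domain, with the SMAD palindrome, had 0, 0, 4 and 4 SMAD2/3 peaks, ranks of 93.95 and 91.35 and then 98.35 and 98.76, and a covered share of 73.3%, 70.2%, 100% and 94.2%. The Gm35815 domain was at the very top in all 4 lists, at 99.96 and 99.97 and then 100 and 99.99. The Luc7l2 domain had overlapping ranks, at 66.44 and 42.02 and then 72.01 and 64.62, and 0, 0, 2 and 1 SMAD2/3 peaks. The Gm32297 domain overlapped too, at 86.53 and 91.79 and then 90.40 and 94.01. A SMAD2/3 summit in a promoter thus came with a higher rank in some of these domains and not in others.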

How the data were processed

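ChIP-seq peak lists of 12 libraries were used. Per the submitters' processing notes, reads of 50 bp were handled with Bowtie2, MACS2 and HOMER on GRCm38 (mm10); their versions and settings are not given in the sources used here. Each deposited list belongs to 1 library, so peaks were called per library. The deposited fold enrichment of a peak is the authors' ratio over a background that the sources used here do not describe. The deposited −log10 q is the authors' too. Fold enrichment was used only as a rank within a list. The main results used −log10 q as such a rank too, and the alternatives also cut it at 5 or averaged it by peak width. H3K27ac lists hold broad peaks without a summit, the factor lists narrow peaks with the deposited summit position, and gene names, classes and distances come from HOMER's annotatePeaks tables, per the file headers.

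From these files, domains, overlaps of at least 1 bp, densities per 100 kb, percentile ranks and covered shares were computed with Python 3.11.15, NumPy 2.4.6, pandas 2.3.3 and SciPy 1.17.1, and the code was tested on simulated data. Gene starts were derived from peak centres and deposited distances, and 1274 genes whose strand could not be solved were left out. Libraries were compared with exact two-sided permutation tests, whose smallest p is 0.333 for 2 against 2 libraries and 0.125 for 4 sign flips, so no comparison could pass 0.05. Wilson intervals at 95% cover counting error only. Read depth is unknown, and list length stands in its place. Promoter sequences are RefSeq's (GRCm38.p6).

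The members, gene lists and tests were chosen with earlier results of these data known. Named are the 10 widest domains, the 5 with most SMAD2/3 and the 5 with most FOXL2 peaks with activin, the 10 largest rises and 10 largest falls of mean rank among domains whose treatments did not overlap, the 3 members on each side of the width limit, and domains of listed genes; others are marked as singled out later. The covered share of each domain, and factor splits without activin H3K27ac library 2, were added after seeing the data. Alternatives covered width, merging gap, q minimum, summit overlap, list length, rank measure, the replicate number as a block and each library left out. The domain comparisons use no Protein-A control, which was not analysed here. Some domains of the naming rule are not reported here; counts over domains and lists include them.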

Additional observations from a re-analysis of the deposited data

How the results depend on the processing

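The number of domains depended on the limits set: 2969 at 4000 bp, 524 at 8000 bp, 257 at 10000 bp and 2777 when peaks up to 1000 bp apart were merged, with 1564 to 1709 when each H3K27ac library was left out. At 10000 bp or more the share with SMAD2/3 in both activin libraries was 66.9%, that with FOXL2 93%, and the promoter share 17.5%. At this width 80 domains ranked higher and 108 lower, the difference in the share ranked higher by SMAD2/3 was 30.7 points, and 69 domains had a larger and 105 a smaller covered share. With factor peaks of −log10 q of at least 5 the SMAD2/3 share was 43% and the FOXL2 share 77.4%, and with 1 activin library in place of both they were 50.3% to 58.4% and 82.5% to 85.8%. By an annotated start inside, the promoter share was 20.3%.

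The log2 difference of SMAD2/3 density between treatments was 2.88 to 4.48 with each library left out and -0.001 with lists of equal length. That of FOXL2 was -0.054 to 0.034 with each library left out and -0.145 with lists of equal length, where the treatments no longer overlapped (exact permutation p = 0.333), and the FOXL2 ratio of domains over narrower regions was -0.087 without promoter regions. The log2 difference in covered bp was -0.085 to 0.040, and in peaks per domain -0.073 to 0.282, with each H3K27ac library left out, and the latter was -0.006 with −log10 q of at least 5. Domains ranked higher numbered 712 to 807 and lower 791 to 909 with each library left out, and all 634 and 715 original calls were kept, since fewer libraries are compared. Covered shares, an added result, were larger in 558 to 836 domains and smaller in 693 to 1011. Ranked by fold enrichment, 604 were higher (586 of them shared with the original 634) and 738 lower. Among the named domains, the rank change of Pitx1 became 0.00 by fold enrichment, and the sign turned for Gata2 (-0.72 by fold enrichment, -0.34 by the width-weighted mean). It also turned for 3 domains whose treatments overlapped in rank: Chgb (2.01 by the width-weighted mean), Gatb (-1.21 and -6.22) and Gucy2f (-0.42 by the width-weighted mean).

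Treating the replicate number as a block kept all 634 and 715 calls and added to them: 689 domains were higher and 778 lower in both same-numbered pairs, where 31.8% and 37.2% of all regions were. The SMAD2/3 difference was 36.5 points, and the log2 differences of SMAD2/3 density (3.68, exact permutation p = 0.5, the smallest for 2 pairs), FOXL2 density (-0.01), covered bp (-0.023) and peaks per domain (0.104) are unchanged by construction. Same-numbered H3K27ac libraries did not deviate together (r = -0.001 over 1797 domains). Unknown read depth limits every comparison of list lengths, and ranks near 100 limit how far the strongest domains can rise.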

Other observations

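Some domains reached 5000 bp through the activin libraries alone. They were picked out after their values were seen, and their lower coverage with vehicle is part of that choice, so the values are a description. The domain at chr17:28427903-28442450, nearest to the start of Gm22146, is 14548 bp wide, of which H3K27ac covered 18.8% and 17% with vehicle, then 99.5% and 89.9% with activin. Its H3K27ac ranks were 66.75 and 61.60, then 93.57 and 92.14. SMAD2/3 was already there with vehicle (2 and 1 peaks, then 3 and 2), and FOXL2 peaks numbered 2 and 4, then 8 and 9. The domain with the start of Omp inside, the gene of olfactory marker protein, at chr7:98145391-98150999, was covered over 22.6% and 12.8%, then 100% and 92.9%, and ranked 70.08 and 72.86, then 92.64 and 90.39, with SMAD2/3 peaks of 0, 0, 2 and 1. The domain nearest to Gm29626, covered over 7.95% and 18.8%, then 97.8% and 74.8%, had a SMAD2/3 peak in activin library 1 alone.

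The start of Mir375, a microRNA of endocrine cells, lay in a domain at chr1:74895312-74900827 with ranks of 99.94 and 99.91, then 99.66 and 99.46, no SMAD2/3 peak in any library and a FOXL2 peak in library 2 of each treatment.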
